A study of Mus musculus with 9 samples.

Results

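The 10 circadian clock genes described here are Arntl, Clock, Npas2, Nr1d1, Nr1d2, Per1, Per2, Per3, Dbp and Tef. They were taken by name from the 24421 gene rows of a raw count table of the mouse main olfactory epithelium (MOE), the nasal tissue that holds the olfactory sensory neurons. All 10 had a row and all 10 were among the 20213 genes with at least 10 reads summed over the libraries, which were tested. The choice was by name and not by a rule on measured values, but it was made with earlier results of these data known. The question they bear on is whether the libraries differed in clock state, as tissue taken at different hours would, beside the genotype for which they were made. The hour of collection is not given in the sources used here.

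RNA-seq was performed on whole MOE of mice labelled C57BL/6 at postnatal day 14, with 3 libraries from wild-type (WT) mice, 3 from mice heterozygous and 3 from mice homozygous for a germline deletion of TAAR enhancer 1. This enhancer is a regulatory element in the cluster of trace amine-associated receptor (Taar) genes, and it was removed by CRISPR-Cas9. The study's methods describe a single established knockout line with littermate comparisons and the use of both sexes, and the sex of each mouse is not given. Its reporting form gives another background and age for this line than the sample labels do. The 3 genotypes shared strain, age and tissue as labelled, and nothing in the labels says which libraries came from 1 litter.

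In a peripheral tissue the clock is a loop of transcription factors. BMAL1 (the product of Arntl) pairs with CLOCK or NPAS2 and switches on genes with E-box sites, among them the Per and Nr1d genes, Dbp and Tef. PER proteins return to inhibit the activators, REV-ERB proteins (from Nr1d1 and Nr1d2) repress Arntl through RORE sites, and DBP and TEF act on D-box sites, such as those of the Per genes. In tissues where this loop runs in step, Arntl and Npas2 peak roughly opposite to Nr1d1 and Dbp, and the swing of Dbp, Nr1d1 and Arntl is large, so that these genes serve as a reading of the hour.

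The letters of these motifs were found in the promoter windows of several members. They are shown because the loop acts through sites of these kinds, and whether these matches are used was not tested. The RefSeq promoter sequences used here (GRCm38.p6) ran from 250 bases before to 50 bases after the start. They covered 9 of the 10 genes, and a window for Per2 was not among them. The E-box CACGTG, which reads the same on both strands, was in the windows of 2 of the 9, Per1 and Tef, against 7.15% of 32851 mouse windows. The related E'-box (CACGTT, or AACGTG on the other strand) was in that of Nr1d1 alone, against 4.685% of windows. The D-box (TTATGTAA, TTACATAA or TTACGTAA) was in that of Per3 alone, against 1.056%. The RORE core (TAGGTCA or TGGGTCA, or TGACCTA or TGACCCA on the other strand) was in that of Arntl alone, against 6.453%. The counts are of genes with a match in any of their windows, and Tef has more than 1, whereas the shares are of single windows. Counts and shares are thus in unlike units, and enrichment was not tested. These letter patterns do not overlap each other in the stretches below, and a match is only a run of letters. Each stretch is written 5′ to 3′ on the strand of the gene, with the matched motif in capitals.
Per1 (chr11:69098746-69098825, plus strand, inside the annotated gene but in no exon), E-box beginning 166 bases before the start: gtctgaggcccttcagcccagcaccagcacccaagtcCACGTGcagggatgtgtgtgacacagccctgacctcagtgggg
Tef, first start (chr15:81802534-81802563, plus strand, overlapping an exon of Tef and one of Gm17597), E-box beginning 127 bases before the start: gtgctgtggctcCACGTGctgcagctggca
Tef, other start (chr15:81811239-81811318, plus strand, inside the gene but in no exon), E-box beginning 138 bases before the start: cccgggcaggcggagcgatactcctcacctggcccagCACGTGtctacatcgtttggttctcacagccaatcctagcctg
Nr1d1 (chr11:98775378-98775457, minus strand, upstream of the annotated gene and in no exon), E'-box beginning 28 bases before the start: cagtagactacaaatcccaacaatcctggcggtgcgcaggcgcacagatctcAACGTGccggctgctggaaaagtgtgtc
Per3 (chr4:151044804-151044883, minus strand, upstream of the annotated gene and in no exon), a pair of D-boxes beginning 205 and 158 bases before the start: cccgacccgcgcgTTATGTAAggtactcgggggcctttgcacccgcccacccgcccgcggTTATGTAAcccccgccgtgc
Arntl (chr7:113207529-113207558, plus strand, in an Arntl exon), RORE core beginning at base 31 after the start: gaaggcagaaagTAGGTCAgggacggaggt

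The libraries held 24583906 to 32631951 reads assigned to genes. Expression is given in CPM, read counts scaled to effective library size, on which 3 reads correspond to 0.0916 to 0.122 CPM. The genotype labels were checked with the summed level of Taar2, Taar3, Taar4 and Taar5, which was 9.11 to 10.3 CPM in WT, 5.34 to 6.54 CPM in heterozygous and 0.0387 to 0.106 CPM in homozygous libraries. The 8 olfactory neuron markers, which define the labelled tissue, summed to 7816 to 8676 CPM in every library. Summed vomeronasal receptor genes (180 genes, of the neighbouring vomeronasal organ) stood at 64.4 CPM in heterozygous 1, 113 CPM in homozygous 2 and 65.4 CPM in homozygous 3, and at 14.5 to 17.2 CPM in the other 6 libraries. For Arntl, Per3, the range of Nr1d2, the spread and some correlations, values are therefore also given without these 3 libraries. Most other values below, among them most fold changes, are given only with them. Leaving them out leaves a single homozygous library that is assumed to vary like the others.

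None of the 10 clock genes differed between genotypes in edgeR's quasi-likelihood test at a Benjamini-Hochberg adjusted p of 0.05 over all genes tested. From the lowest to the highest of the 9 libraries the members spanned 1.10-fold (Tef) to 1.52-fold (Arntl). The 95% intervals of the fold differences, over the 10 genes and the 3 pairs of genotypes, all lay between 0.714-fold and 1.25-fold. Differences of 1.5-fold in either direction were thus outside every interval. Each interval was computed for a single gene and pair of genotypes, with no adjustment for their number. Since whole tissue was measured, fewer cells of a type and less RNA per cell cannot be told apart in any of these values. The study describes its RNA-seq comparison as one of 3 mice a genotype, so p-values measure the spread between mice as well as that between libraries.

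**Figure D1:**
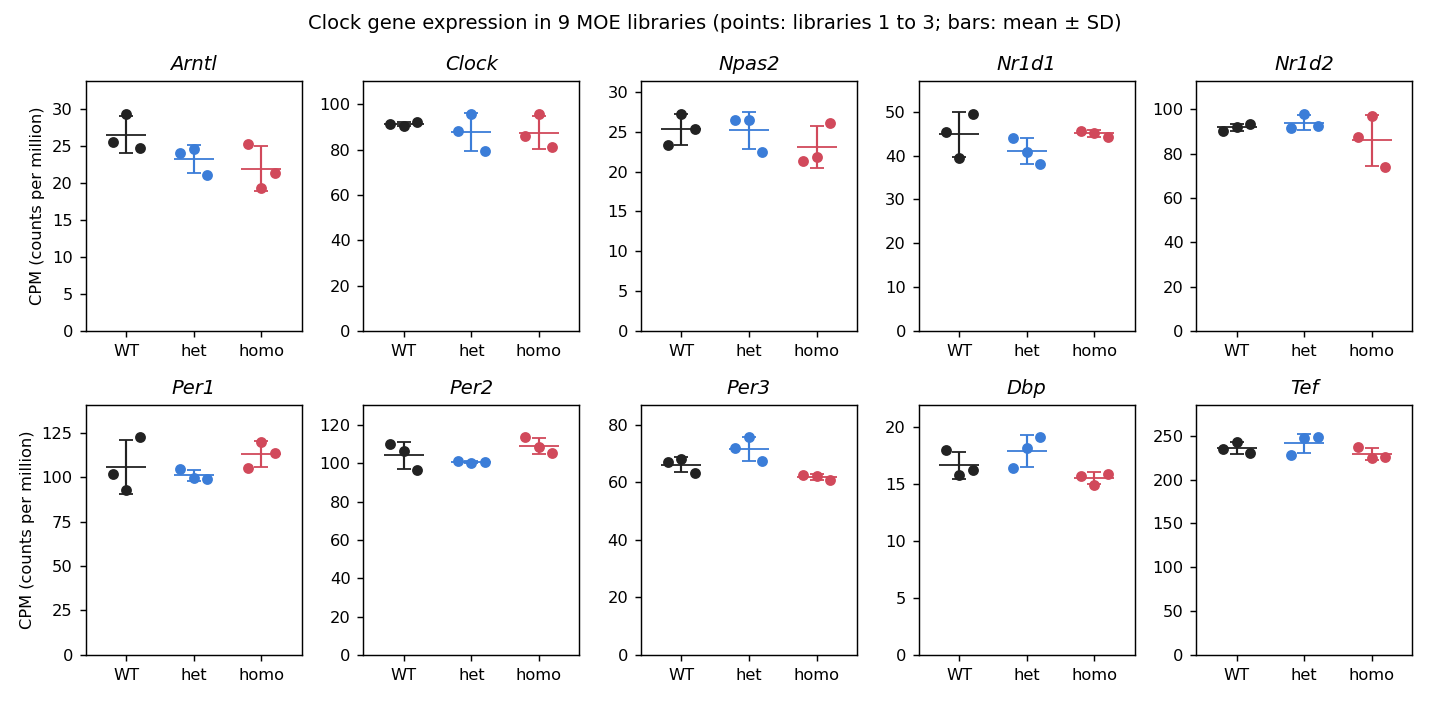
Expression of the 10 clock genes in CPM (vertical axes, each starting at 0) by genotype (horizontal axes: WT, heterozygous, homozygous). Points are libraries 1 to 3 from left to right, horizontal lines are means and whiskers are SD (n = 3), and the widest range as a fold is that of Arntl, from 19.3 to 29.4 CPM (1.52-fold).

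Corrected for the annotated exon length, the 10 genes spread over a wide range of levels. Tef was highest at 29.9 CPM per kb of exon (mean of 9 libraries), and its lowest library (28.6 CPM per kb) lay above the highest library of any other member. Per1 (18.9 CPM per kb), Per2 (17.9), Nr1d2 (16.8) and Nr1d1 (14.2) followed, and each overlapped the next in its range over the libraries. A lower set held Per3 (6.92 CPM per kb), Clock (6.48), Dbp (5.58) and Npas2 (5.12), again with each range overlapping the next. Arntl was lowest at 3.18 CPM per kb, with a range of 2.56 to 3.90 that did not reach that of Npas2. Exon length is that of all annotated transcripts joined, so a gene with unused exons is set too low on this scale.

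Among the activators, Arntl, whose product BMAL1 is the partner that the loop cannot do without, had the widest range as a fold. It was at 25.5, 29.4 and 24.7 CPM in WT 1 to 3, at 24.0, 24.7 and 21.1 CPM in heterozygous 1 to 3, and at 25.2, 19.3 and 21.4 CPM in homozygous 1 to 3. Every heterozygous library was below every WT library, although the gap between heterozygous 2 and WT 3 was narrow, whereas homozygous 1 lay within the WT range. Against WT, Arntl had a log2 fold change of -0.27 in homozygous mice (SE 0.10, 95% interval -0.49 to -0.061, edgeR unadjusted p = 0.0149, adjusted p = 0.437). Without the 3 libraries with vomeronasal receptor reads this value was -0.077. The only homozygous library then left was homozygous 1, the highest of its genotype for Arntl. Without homozygous 2 alone the value was -0.19, and without homozygous 3 alone it was -0.25. In heterozygous against WT mice, over all libraries, the log2 fold change of Arntl was -0.19 (SE 0.099, adjusted p = 1.00).

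Clock, which encodes the usual partner of BMAL1, was at 91.4, 90.3 and 92.4 CPM in WT, at 88.3, 95.9 and 79.4 CPM in heterozygous and at 86.0, 95.6 and 81.2 CPM in homozygous libraries. The WT libraries lay close together inside the range of both other genotypes. Npas2, an alternative partner, was at 23.3, 27.2 and 25.3 CPM in WT, at 26.5, 26.5 and 22.5 CPM in heterozygous and at 21.3, 21.9 and 26.1 CPM in homozygous libraries, with overlap in every pair. Its log2 fold change in homozygous against WT mice was -0.13 (SE 0.093, edgeR adjusted p = 0.7005), and that of Clock was -0.061 (SE 0.066, adjusted p = 0.840).

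Nr1d1, encoding the repressor REV-ERBα, was at 45.5, 39.4 and 49.5 CPM in WT, at 43.9, 40.9 and 38.0 CPM in heterozygous and at 45.7, 45.2 and 44.2 CPM in homozygous libraries. The homozygous libraries lay close together, all above the heterozygous ones, and WT overlapped both. The log2 fold change of homozygous against heterozygous mice was 0.14 (SE 0.075, edgeR adjusted p = 0.548). Of the exon bases of Nr1d1, 8.55% are shared with Thra on the opposite strand, and the strand setting of the counting is not given in the sources used here.

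Nr1d2, which encodes REV-ERBβ, was at 90.3, 92.2 and 93.4 CPM in WT, at 91.5, 98.1 and 92.6 CPM in heterozygous and at 87.4, 96.9 and 74.0 CPM in homozygous libraries. Homozygous 3 stood alone below all others. Without the 3 libraries with vomeronasal receptor reads, of which it is one, the range of Nr1d2 over libraries dropped from 1.32-fold to 1.12-fold. No pair of genotypes was apart, and the lowest edgeR adjusted p of Nr1d2 was 0.557 (homozygous against heterozygous, log2 fold change -0.13, SE 0.071).

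The Per genes encode the inhibitors of the loop, and Per1 is also induced by light, neuronal activity and glucocorticoids. Per1 was at 102, 92.7 and 122 CPM in WT, at 105, 99.4 and 98.8 CPM in heterozygous and at 105, 120.0 and 114 CPM in homozygous libraries. All homozygous libraries were above all heterozygous ones, by a small margin, and WT spanned wider than both. The log2 fold change of homozygous against heterozygous mice was 0.16 (SE 0.078, edgeR adjusted p = 0.504).

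Per2 was at 110.3, 106 and 96.5 CPM in WT, at 102, 100.2 and 101 CPM in heterozygous and at 114, 108 and 105 CPM in homozygous libraries. The heterozygous libraries were tightly grouped below the homozygous ones, with WT across both. The log2 fold change of homozygous against heterozygous mice was 0.11 (SE 0.051, edgeR unadjusted p = 0.039, adjusted p = 0.453).

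Per3 came closest to a call. It was at 66.8, 68.1 and 63.3 CPM in WT, at 71.8, 75.5 and 67.4 CPM in heterozygous and at 62.5, 62.1 and 60.7 CPM in homozygous libraries. The homozygous libraries were below all WT and all heterozygous ones, and heterozygous 3 lay within the WT range. The log2 fold change of homozygous against heterozygous mice was -0.21 (SE 0.051, 95% interval -0.32 to -0.10, edgeR unadjusted p = 0.00081, adjusted p = 0.152). Against WT, the homozygous mice gave -0.098 (SE 0.051, adjusted p = 0.592) and the heterozygous mice 0.11 (SE 0.051, unadjusted p = 0.0397, adjusted p = 1.00). The values of heterozygous and homozygous mice thus lay on opposite sides of WT, and not in the order of the number of deleted alleles. The difference between homozygous and heterozygous mice passed the threshold with DESeq2 at default settings (log2 fold change -0.21, adjusted p = 0.0497) and, in edgeR, when heterozygous 3 was left out (-0.25, adjusted p = 0.0374), where 190 genes were called. Over all alternatives its adjusted p ran from 0.0374 to 0.956, the last without the 3 libraries with vomeronasal receptor reads (log2 fold change -0.19).

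The output genes Dbp and Tef encode transcription factors of the PAR bZIP family, through which the clock passes rhythm to other genes. Dbp was at 18.0, 15.8 and 16.2 CPM in WT, at 16.4, 18.2 and 19.1 CPM in heterozygous and at 15.7, 14.96 and 15.9 CPM in homozygous libraries. Homozygous libraries were below all heterozygous ones and overlapped WT. The log2 fold change of homozygous against heterozygous mice was -0.20 (SE 0.087, edgeR unadjusted p = 0.033, adjusted p = 0.430). Dbp rested on 368 to 565 reads a library, the fewest of the 10, and 18.0% of its exon bases are shared with Sphk2 on the opposite strand. Tef was at 235, 243 and 230.3 CPM in WT, at 228, 247 and 248 CPM in heterozygous and at 237, 225 and 226 CPM in homozygous libraries, a range of 1.10-fold in which all genotypes overlapped. The lowest edgeR adjusted p of Tef was 0.642 (homozygous against heterozygous, log2 fold change -0.071, SE 0.047).

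**Figure D2:**
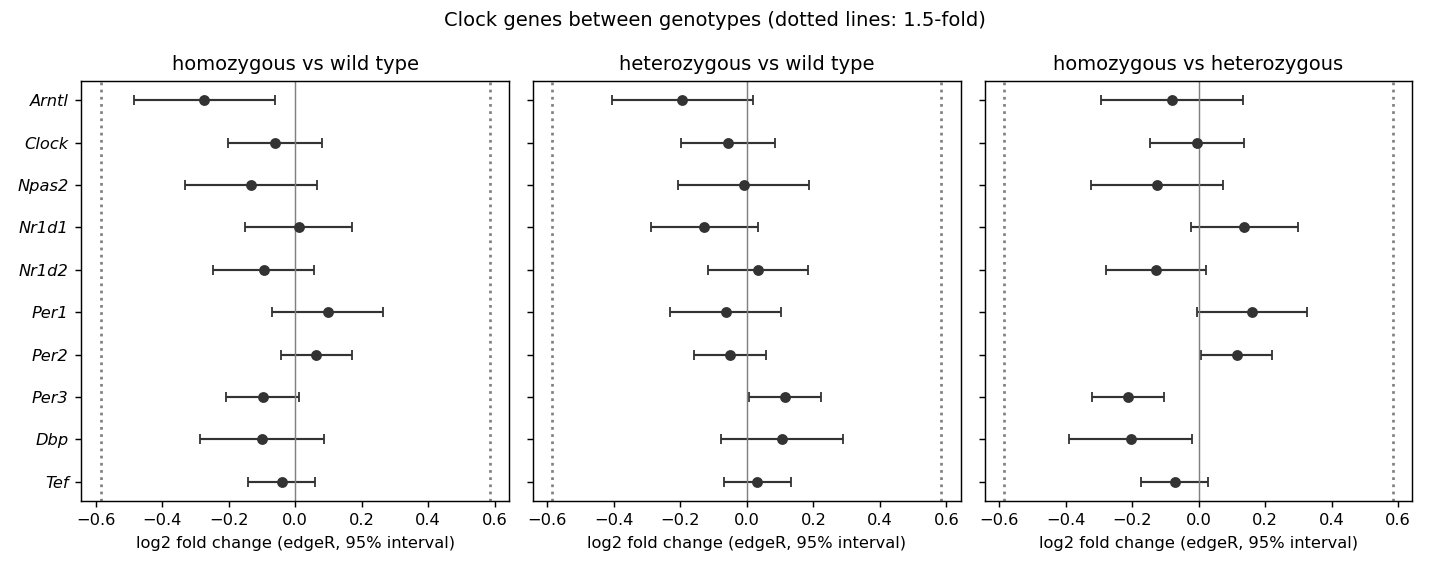
Log2 fold change of each clock gene (horizontal axes, edgeR) with its 95% interval (whiskers) for the 3 pairs of genotypes, and dotted lines at 1.5-fold in either direction. No interval reached a dotted line, and the interval of Per3 in homozygous against heterozygous mice (-0.32 to -0.10) lay farthest from 0 relative to its width.

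Read against all genes tested, the count of members called was as low as that of other genes. In homozygous against WT mice 0 of 10 members were called, beside 0.0495% of all genes, and 1 (Arntl) had an unadjusted p under 0.05 in edgeR, beside 9.26%. Heterozygous against WT mice also gave 0 of 10, beside 0.00495%, with 1 (Per3) under the unadjusted threshold, beside 3.25%. In homozygous against heterozygous mice 0 of 10 were called by edgeR, beside 0.114% of all genes, 1 (Per3) was called by DESeq2, beside 0.643%, and 3 (Per2, Per3 and Dbp) had an unadjusted p under 0.05, beside 10.4%. For any difference among the genotypes the count was 0 of 10, beside 0.0643%, and 2 (Per3 and Arntl) were under the unadjusted threshold, beside 8.45%. With only 10 members, counts of 1 or 2 are near the background, and the count of 3 is above it by a pair of genes.

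Counted by overlap alone, 1 member (Per3, lower) had no overlap between homozygous and WT libraries, beside 15.4% of all genes, and 1 (Arntl, lower) between heterozygous and WT libraries, beside 8.68%. Between homozygous and heterozygous libraries there were 5 (Nr1d1, Per1 and Per2 higher, Per3 and Dbp lower), beside 14.1%. The nearest libraries almost met for Nr1d1 (44.2 against 43.9 CPM) and Per1 (105.2 against 104.7 CPM), and members of a loop do not vary independently. The median log2 fold change of the 10 genes was -0.078, -0.030 and -0.076 for homozygous against WT, heterozygous against WT and homozygous against heterozygous mice, beside -0.00057, 0.0033 and -0.0017 over all genes.

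The other clock genes gave no call either. This list of 18 genes holds the cryptochromes, the BHLHE40 and BHLHE41 repressors, further output factors, and, among others, the kinases and F-box proteins that set PER and CRY stability. None of the 18 was called in any of the 4 comparisons by edgeR, or by DESeq2. In homozygous against heterozygous mice, 3 of 18 had an unadjusted p under 0.05 in edgeR, beside 10.4% of all genes, and in each of the comparisons with WT 0 of 18 had, beside 9.26% (homozygous) and 3.25% (heterozygous). Nfil3, which encodes E4BP4, the repressor at D-boxes that opposes DBP and TEF, was at 18.7, 15.1 and 14.4 CPM in heterozygous and at 19.1, 22.3 and 19.4 CPM in homozygous libraries, with WT between 17.2 and 19.2 CPM. It did not overlap between these genotypes, with a log2 fold change of 0.33 (SE 0.10, unadjusted p = 0.005, adjusted p = 0.271). Wee1, a cell cycle kinase with E-box control, had -0.16 (SE 0.069, adjusted p = 0.454), and the inhibitor Cry2 had 0.096 (SE 0.045, adjusted p = 0.478).

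Of the rest of the clock genes named, Cry1, the other cryptochrome, ran from 47.8 to 55.8 CPM and Cry2 from 94.8 to 109 CPM. Hlf, the third PAR bZIP factor, ran from 81.5 to 94.3 CPM, and the repressor Bhlhe41 from 31.0 to 36.7 CPM. Ciart is a repressor of BMAL1 and in other tissues one of the most strongly cycling genes. It ran from 3.09 to 5.10 CPM, with WT 3 highest and homozygous 2 lowest. This range of 1.65-fold was wider than that of any of the 10 members, but it rested on 76 to 132 reads a library. The SD of its log2 CPM about the genotype means (0.194) was 1.37 times that expected from its read number alone. Among genes of like abundance, Ciart stood at percentile 45.2 of this SD, below their median (0.202). Its log2 fold change was -0.27 in heterozygous (SE 0.16, edgeR adjusted p = 1.00) and -0.21 in homozygous mice (SE 0.16, adjusted p = 0.748) against WT. The remaining low p-values of each comparison were Bhlhe41 (0.11, SE 0.060, adjusted p = 0.616) and Usp2 (-0.15, SE 0.086, adjusted p = 0.626) in homozygous against WT mice and Wee1 (0.12, SE 0.069, adjusted p = 1.00) in heterozygous against WT mice.

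For 5 of the 10 clock genes, libraries of the same genotype differed more than they did for 90% of genes of like abundance. For each gene the SD of log2 CPM about the genotype means was placed among the 1000 tested genes nearest in mean level. The percentile was 98.1 for Per1 (SD 0.132), 96.6 for Nr1d2 (0.118), 93.7 for Clock (0.105), 92.1 for Arntl (0.153), 90.3 for Nr1d1 (0.114) and 88.3 for Npas2 (0.137). It was 63.9 for Per2 (0.0657), 42.4 for Tef (0.0517), 38.0 for Per3 (0.0587) and 31.7 for Dbp (0.0921). The median of the 10 was 89.3. These percentiles are a description with no test, and members of a loop do not vary independently. For the 18 other clock genes the median was 40.75. The repressor Bhlhe40, named after its values were seen, had the highest percentile of them, 99.1. It was at 53.4 CPM in heterozygous 1 and at 32.8 to 40.2 CPM in the other libraries.

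Counting error was a small part of this spread for most members. The SD of Per1 was 4.94 times that expected from its read number alone, that of Nr1d2 4.08 times and that of Clock 3.59 times, whereas that of Dbp was 1.37 times. Without the 3 libraries with vomeronasal receptor reads, 4 of the 10 remained above the 90th percentile (Per1 99.2, Nr1d1 96.7, Clock 95.7 and Arntl 90.3), while Nr1d2 moved to 29.3, and the median was 84.55. The spread was small in size. The range over 9 libraries was 1.32-fold for Per1 against a median of 1.14-fold for its 1000 neighbours, and 1.28-fold for Dbp against 1.27-fold.

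**Figure D3:**
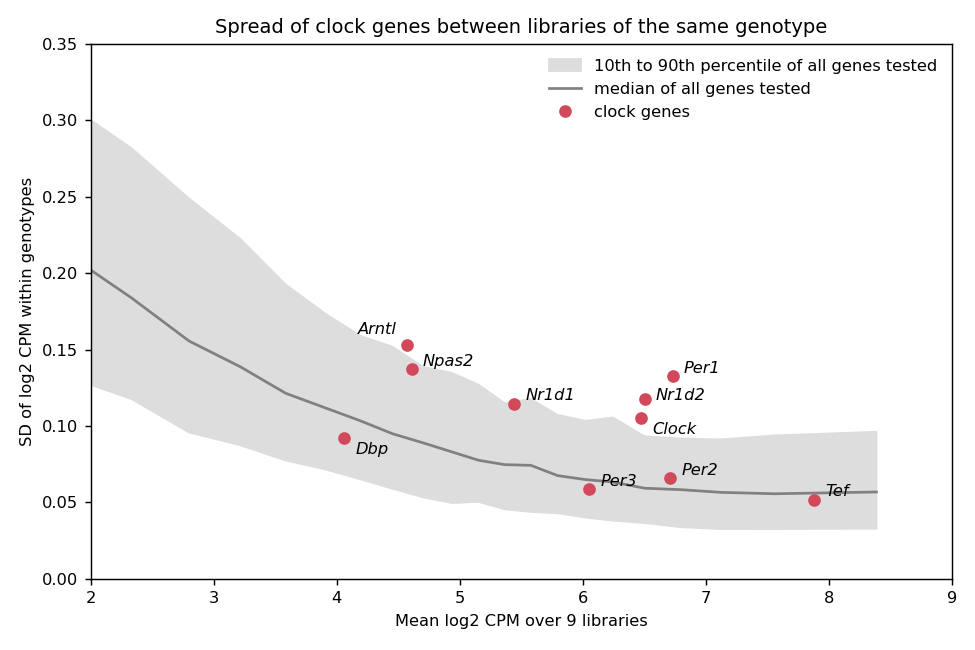
SD of log2 CPM between libraries of the same genotype (vertical axis) against mean log2 CPM (horizontal axis) for the 10 clock genes (points), with the median (line) and the 10th to 90th percentile (band) of all genes tested in 30 bins of expression. Per1 and Nr1d2 lie well above the band, Clock and Arntl slightly above it, Nr1d1 at its upper edge, and Dbp, Per3 and Tef at or below the line.

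Several other gene lists varied between these libraries too. The median percentile was 96.2 for 12 immediate early genes, which respond to neuronal activity and handling, 90.7 for 11 glucocorticoid-responsive genes, 90.6 for 6 connective tissue and bone markers, 90.2 for 5 neutrophil markers and 90 for 6 respiratory ciliated cell markers, all about that of the clock genes or above it. It was 70 for 6 sustentacular cell markers, 68 for 5 olfactory bulb markers and 57.1 for 8 olfactory neuron markers. For the 3 muscle markers tested it was 12.8, and the 1 blood marker tested stood at 99.3. Fos ran from 7.18 CPM in heterozygous 2 to 15.4 CPM in homozygous 2, Fkbp5 from 50.1 CPM in homozygous 2 to 62.2 CPM in heterozygous 2, and Tsc22d3 from 74.9 CPM in homozygous 2 to 96.9 CPM in WT 3. No immediate early gene was called in any comparison. Of the glucocorticoid list only Zbtb16, a transcriptional repressor, was called, in homozygous (6.52, 2.15 and 3.37 CPM) against heterozygous mice (17.7, 14.03 and 13.1 CPM), with a log2 fold change of -1.88 (edgeR adjusted p = 0.0337). In WT it was at 8.75, 15.7 and 7.19 CPM.

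Cell type markers also moved between libraries. The 5 neutrophil markers summed to 522 to 816 CPM in WT, 283 to 860 CPM in heterozygous and 335 to 611 CPM in homozygous libraries. Nearly all of this was Ltf, which encodes lactoferrin and is also made by glands, at 266 CPM in heterozygous 3 to 847 CPM in heterozygous 2. The other 4 (S100a8, S100a9, Ngp and Camp) summed to 12.8 to 17.6 CPM, with heterozygous 2 lowest and heterozygous 3 at 17.0 CPM, and did not share the pattern of Ltf. The 6 connective tissue and bone markers summed to 11026 to 14105 CPM, the 6 sustentacular cell markers to 6737 to 7522 CPM, and the 6 respiratory ciliated cell markers to 415 to 556 CPM. The 5 olfactory bulb markers summed to 8.71 to 13.8 CPM, the 3 of 5 muscle markers tested to 1.70 to 2.68 CPM, and the 1 of 5 blood markers tested to 5.81 to 18.3 CPM. Their part in the spread of the clock genes was not tested.

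Since Arntl stands opposite to Nr1d1 and Dbp in cycling tissues, with the Per genes peaking later than these, the other members were compared with it. Across the 9 libraries none of the 9 other members was correlated with Arntl after adjustment over the 9 pairs (two-sided exact permutation tests on log2 CPM). The strongest was Per1 (Pearson r = -0.57, exact permutation p = 0.107, adjusted p = 0.692; Spearman rho = -0.33, p = 0.385, adjusted p = 0.740). With homozygous 2 and WT 2, the libraries farthest from the median of Arntl, left out, r was 0.023, so this relation rested on them, although leaving out extremes of Arntl also narrows its range. With the genotype means removed r was -0.65 over all 9 libraries. For Npas2, r was 0.46 (exact permutation p = 0.216, adjusted p = 0.692, rho = 0.32, p = 0.410) and dropped to -0.080 without the same libraries. Nr1d1 and Dbp, which swing widely in cycling tissues, had the values nearest 0. Pearson's r was -0.062 for Nr1d1 (exact permutation p = 0.872, adjusted p = 0.910, rho = 0.22, p = 0.581) and 0.045 for Dbp (exact permutation p = 0.910, adjusted p = 0.910, rho = -0.05, p = 0.912), and without homozygous 2 and WT 2 they were 0.58 and -0.19. Over the 6 libraries left without the 3 with vomeronasal receptor reads, r with Arntl was -0.72 for Dbp and 0.15 for Nr1d1, so the value for Dbp depended strongly on which libraries were used.

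The ratio of Nr1d1 to Arntl, which compares the repressor with its target in the same library, ran from 1.34 in WT 2 to 2.34 in homozygous 2. It was 1.78 and 2.005 in the other WT libraries, 1.83, 1.66 and 1.80 in heterozygous 1 to 3, and 1.81 and 2.07 in homozygous 1 and 3. Between the lowest and highest ratios, the remaining libraries, drawn from all genotypes, thus ran from 1.66 to 2.07. The ratio of Dbp to Arntl had another order, with 0.537 in WT 2 and 0.907 in heterozygous 3 at its ends and 0.776 in homozygous 2.

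**Figure D4:**
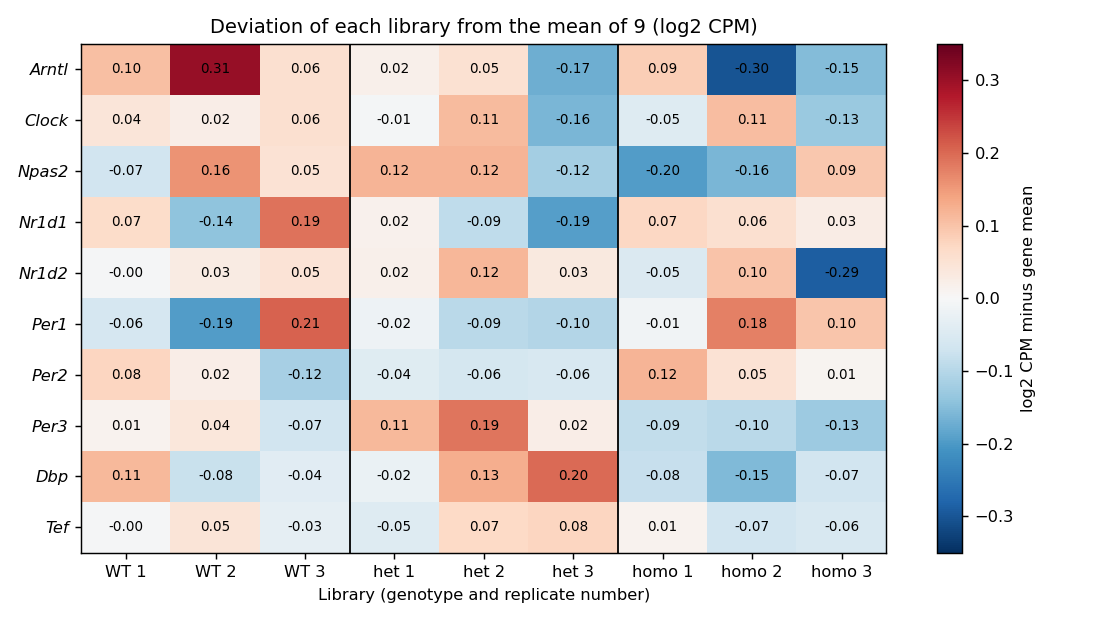
Deviation of log2 CPM from the mean of the 9 libraries for each clock gene (rows) in each library (columns, grouped by genotype), with red above and blue below the mean. WT 2 (Arntl 0.31, Per1 -0.19) and homozygous 2 (Arntl -0.30, Per1 0.18) are opposite in these genes, while Dbp was below its mean in both (-0.08 and -0.15).

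Averaged over the 10 genes, the absolute deviation from the gene mean was smallest in heterozygous 1 (0.042 on the log2 scale) and largest in homozygous 2 (0.127). Libraries with large deviations were found in each genotype, at 0.104 in WT 2 and 0.114 in heterozygous 3. They deviated in different genes. In heterozygous 3, Dbp was 0.20 above and Nr1d1 0.19 below its mean on the log2 scale. In homozygous 3 the largest deviation was that of Nr1d2 (-0.29), and in homozygous 1 that of Npas2 (-0.20).

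Among all 45 pairs of members, 23 correlations were positive and 22 negative. In 5 the exact permutation p of Pearson's r was under 0.05, and none passed the adjustment over the 45 pairs (lowest adjusted p = 0.308). The pairs named here were chosen after their values were seen. Nr1d1 and Per1 had r = 0.79 (exact permutation p = 0.0112, adjusted p = 0.308, rho = 0.80, p = 0.0138, adjusted p = 0.388). With the genotype means removed r was 0.78, without heterozygous 3 and WT 2 it was 0.69, and without the 3 libraries with vomeronasal receptor reads it was 0.85. Tef went the other way from Per1 (r = -0.79, exact permutation p = 0.0137, adjusted p = 0.308, rho = -0.78, p = 0.0172, adjusted p = 0.388). For this pair r was -0.70 once genotype means were removed and -0.78 without WT 3 and homozygous 2. The other 3 of the 5 pairs were Nr1d1 with Tef (r = -0.74, exact permutation p = 0.0238, adjusted p = 0.357; rho = -0.52, p = 0.162), Clock with Nr1d2 (r = 0.66, exact permutation p = 0.0403, adjusted p = 0.386; rho = 0.70, p = 0.0433) and the output genes Dbp and Tef (r = 0.69, exact permutation p = 0.0429, adjusted p = 0.386; rho = 0.58, p = 0.108). Without the libraries farthest from the median of the first gene of each pair they were -0.49, 0.93 and 0.23. Within the Per family, Per1 and Per3 had r = -0.64 (exact permutation p = 0.0625, adjusted p = 0.469; rho = -0.70, p = 0.0433, adjusted p = 0.487), and -0.56 without WT 3 and homozygous 2. Per1 and Per2 had r = -0.15 (exact permutation p = 0.702, adjusted p = 0.907; rho = -0.017, p = 0.982), 0.17 without the same libraries, and -0.76 with the genotype means removed. Per2 and Per3 had r = -0.39 (exact permutation p = 0.297, adjusted p = 0.729; rho = -0.42, p = 0.270), -0.62 without WT 3 and homozygous 1, and 0.49 with the genotype means removed, which turned the sign.

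**Figure D5:**
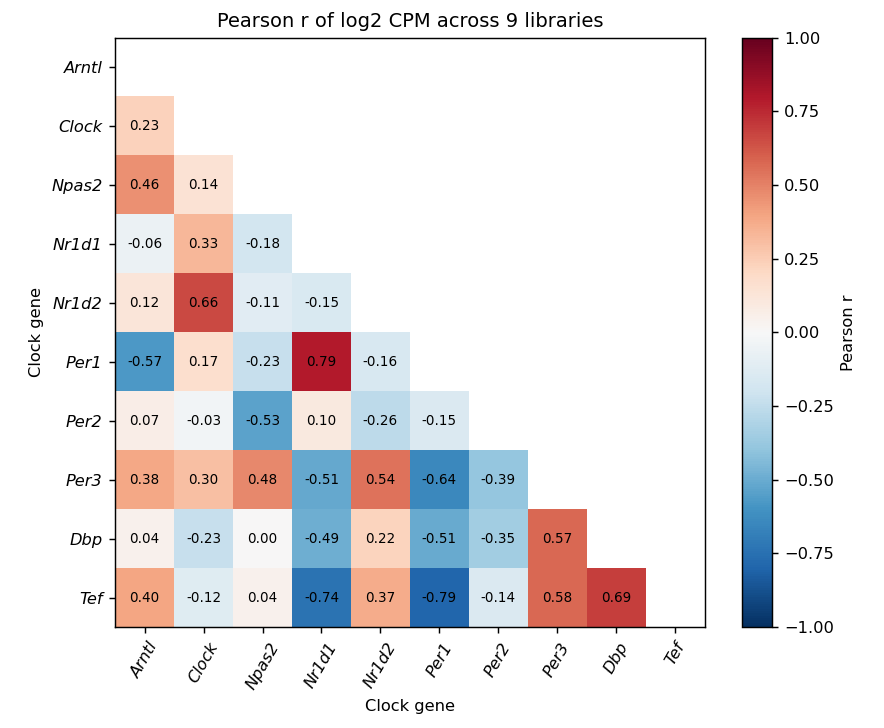
Pearson r of log2 CPM across the 9 libraries for each pair of the 10 clock genes (both axes list the genes; red is positive, blue negative). The darkest cells are Nr1d1 with Per1 (0.79) and Per1 with Tef (-0.79), and the column of Arntl holds values from -0.57 to 0.46.

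Per1 was also compared with the 23 immediate early and glucocorticoid-responsive genes, since it is a target of both signals. In 3 of them the exact permutation p of Pearson's r was under 0.05, and none passed the adjustment over the 23 pairs (lowest adjusted p = 0.141). These 3 were the glucocorticoid-responsive Fkbp5 (r = -0.78, exact permutation p = 0.0144; rho = -0.78, p = 0.0172), Sult1a1 (r = -0.77, exact permutation p = 0.0136; rho = -0.78, p = 0.0172) and Zbtb16 (r = -0.76, exact permutation p = 0.0184; rho = -0.72, p = 0.0369). Without WT 3 and homozygous 2 they were -0.71, -0.62 and -0.78. By Spearman's rho one more gene, the immediate early gene Dusp1, had an exact permutation p under 0.05, with a positive value (rho = 0.73, p = 0.0311, adjusted p = 0.212; r = 0.59, p = 0.0849, and 0.38 without the same libraries). For Fos, r was 0.37 (exact permutation p = 0.331, adjusted p = 0.615; rho = 0.33, p = 0.385) and -0.10 without the same libraries. Of the 23 correlations, 15 were positive and 8 negative. Positive values among glucocorticoid-responsive genes included Cdkn1a (r = 0.58), Klf9 (0.56) and Errfi1 (0.54), which were 0.53, -0.17 and 0.24 without the same libraries. With the genotype means removed r was 0.94 for Klf9 and 0.76 for Errfi1, and -0.77, -0.66 and -0.74 for Fkbp5, Sult1a1 and Zbtb16.

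The genes that most resembled Dbp and Arntl in their pattern over the 9 libraries were sought among 4595 genes outside both clock lists, with a mean of at least 1 CPM and an SD of log2 CPM of at least 0.15. Picked as extremes of 4595 values over 9 libraries, they are a description only. With Dbp the highest Pearson r were those of Mfap5 (0.93), Olfr1466 (0.90), Syt6, Zfp493 and Gsta2 (0.87 each), and the lowest those of Olfr129, Olfr683, Zfp948, 4933413J09Rik (-0.88 each) and Zfp712 (-0.85). With Arntl the highest were Slfn9 (0.91), Tnfaip6 (0.91), Nkain2 (0.90), Cyp4f17 (0.87) and Slc30a10 (0.86), and the lowest Hist2h2ab (-0.92), Dusp15 (-0.89), Timm8a1, Wnt7b and Cxx1b (-0.88 each). No clock gene could be among them, since both clock lists were left out.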

How the data were processed

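Whole MOE of 3 genotypes was profiled with 3 libraries each. The authors extracted total RNA, made directional polyA-selected libraries, aligned reads to mm10 and deposited raw counts per gene. The submitters' processing notes name Trimmomatic 0.36, HISAT2 2.1.0, HTSeq 0.6.1p1 and DESeq2 1.20.0, while the study's methods name featureCounts for counting. The annotation and strand setting are not given in the sources used here. A second table, normalized by the authors, was not used. Summary rows were left out (1.29 to 1.35% ambiguous and 21.6 to 22.4% outside genes per library).

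Genes with at least 10 summed counts were fitted with edgeR 4.0.16 in R 4.3.3 (TMM, quasi-likelihood test, genotype as the only term, all 9 libraries, Benjamini-Hochberg over 20213 genes, threshold 0.05). Log2 CPM used a prior count of 1. Permutation tests went through all pairings of the libraries, with ranks from scipy 1.17.1. The edgeR step was tested on simulated data. Positions are from GENCODE M21 for GRCm38 and promoter sequences from RefSeq. Alternatives were DESeq2 1.42.0, other size factors and filters, a replicate block, only the 6 libraries compared, and each library left out.

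The members, the other gene lists and the tests were chosen with earlier results of these data known. Named are all 10 members, Cry1, Cry2, Nfil3, Hlf, Ciart, Bhlhe41, other clock genes that were called or had the 2 lowest p-values of a comparison, the 5 genes most and least correlated with Dbp and with Arntl, and Fos, Fkbp5, Tsc22d3, Zbtb16 and called genes of their lists. Genes named beyond this rule were chosen after their values were seen.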

Additional observations from a re-analysis of the deposited data

How the results depend on the processing

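The count of clock genes called stayed at 0 in homozygous against WT mice, in heterozygous against WT mice and for any difference among genotypes under each alternative run. In homozygous against heterozygous mice it was 1 (Per3) with DESeq2 at default settings, and it ran from 0 to 1 when each library was left out in turn, with 1 (Per3) only without heterozygous 3. With a replicate block it was 0 in all 4 comparisons (lowest adjusted p of a member 0.0844, Per3 in homozygous against heterozygous mice, where the block moved the genes called from 23 to 41). Deviations of libraries with the same replicate number correlated between -0.152 and 0.305, and several were below 0. The highest values were those of heterozygous with homozygous libraries numbered 2 (0.26) and 3 (0.305). Whether replicate numbers pair the libraries is not given in the labels, and these correlations cannot settle it. DESeq2 called 63, 3, 130 and 123 genes in the 4 comparisons, in the order homozygous against WT, heterozygous against WT, homozygous against heterozygous and any difference, where edgeR called 10, 1, 23 and 13, and in the first it gave an adjusted p for 7 of the 10 members only. Of 480 fold changes under alternatives, 15 had the other sign, in 9 of 30 pairs of a member and a comparison, none over 0.097 in absolute log2 fold change as reported. The median percentile of spread ran from 70.1 (without homozygous 3) to 89.65 (without heterozygous 2) when single libraries were left out. The spread and range without the 3 libraries with vomeronasal receptor reads were added after seeing the data.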
